A study of Mus musculus with 12 samples.

Results

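The 10 genes of triglyceride synthesis and glyceroneogenesis described here were chosen by name and followed in mouse brown adipose tissue (iBAT): Aqp7, Gk, Gpd1, Pck1, Gpam, Gpat3, Agpat2, Lpin1, Dgat1 and Dgat2. They are 10 of the 61210 genes in the count table, and all 10 were among the 16737 genes with enough counts to be tested. The samples were 12 libraries of total RNA from C57BL/6N mice aged 20 weeks, 3 libraries in each of 4 groups. The groups were control diet (NCD) at room temperature, NCD with 24 h at 4 °C, high-fat diet (HFD) at room temperature and HFD with 24 h at 4 °C. All mice ate chow until 8 weeks of age, after which the HFD groups received HFD for 12 weeks. The sex of the mice was not given in the sources used here.

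Brown adipocytes store triglyceride in many small droplets and burn its fatty acids to produce heat. The backbone of triglyceride is glycerol-3-phosphate, which can be made from glycerol by glycerol kinase, from glucose by reduction of dihydroxyacetone phosphate, or from pyruvate and amino acids through phosphoenolpyruvate carboxykinase, the route called glyceroneogenesis. Acyltransferases then add fatty acids one after another, a phosphatase removes the phosphate, and a last acyltransferase closes the molecule. White adipocytes express little glycerol kinase, so the gene is known for its higher expression in brown fat.

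Library totals ranged from 15136861 to 46740702 counts. By the labels, replicates 1 and 2 of each group formed 1 batch (15136861 to 21026727 counts) and replicate 3 of each group another (34067515 to 46740702 counts). The brown adipocyte marker Ucp1 lay between 3790 and 18800 CPM, counts scaled to the TMM-normalized library size, in the 12 libraries, and the hepatocyte marker Alb at 2.15 CPM or less. The summed level of 9 skeletal muscle markers, all detected, differed 6.14-fold to 9-fold between the libraries of 1 group and was highest in replicate 2 of both NCD groups and in replicate 3 of both HFD groups. The summed level of 5 adipocyte markers was 9627 to 11260 CPM on NCD at room temperature, 12860 to 15060 CPM on NCD in the cold, 7625 to 9814 CPM on HFD at room temperature and 7845 to 10290 CPM on HFD in the cold. Other marker sums moved with the cold. Those of 6 brown adipocyte markers, Ucp1 among them, were 5993 to 7445 CPM at room temperature and 19630 to 22850 CPM in the cold on NCD, and 8035 to 10310 CPM and 15370 to 18790 CPM on HFD. Those of the 3 white adipocyte markers in the table, of 4 listed, were 168.6 to 305.6 CPM and 43.57 to 141.5 CPM on NCD, and 106.4 to 297.8 CPM and 41.48 to 75.75 CPM on HFD. Those of 3 endothelial markers were 391.3 to 508.5 CPM and 579.3 to 680.8 CPM on NCD, without overlap, and 572.3 to 797.8 CPM and 774.7 to 915.7 CPM on HFD, with overlap. The brown and white adipocyte sums did not overlap between the temperatures on either diet, and the part of these sums in the cold effects below was not tested. In bulk tissue, fewer cells of a type and less RNA per cell cannot be told apart. The labels give the replicates' numbers and batches and nothing on separate animals, so p-values measure the spread between these libraries.

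Gk, Gpam and Dgat1 were higher in the cold on both diets. Gk rose 6.25-fold on NCD and 3.93-fold on HFD, Gpam 2.78-fold and 1.68-fold, and Dgat1 1.51-fold and 1.85-fold. Aqp7 rose 1.63-fold in the cold on NCD. HFD raised Gk 2.06-fold at room temperature, and Gpd1 fell by 1.34 on the log2 scale with HFD in the cold. Gpat3, Pck1, Agpat2, Lpin1 and Dgat2 passed no threshold in these comparisons in the edgeR fit of the 4 groups.

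Calls required a Benjamini-Hochberg (BH) adjusted p under 0.05 over all 16737 genes in the quasi-likelihood test of edgeR, together with a log2 fold change beyond 0.5 in either direction. In the cold on NCD, 4 of the 10 genes were called higher, where 3.72% of all tested genes were called higher and 2.55% lower. For cold on HFD the call went to 3 of 10, all higher, against 5.39% of all genes higher and 4.19% lower. With HFD at room temperature 1 of 10 was called higher (all genes 0.992% higher and 1.09% lower), and with HFD in the cold 1 of 10 was called lower (all genes 2.06% higher and 2.69% lower). The 4-group test at an adjusted p under 0.001 called 2 of 10, Gk and Gpam, against 2.55% of all genes. Dgat1 lay just outside this threshold (edgeR, BH-adjusted p = 0.00102) and Gpam just inside (edgeR, BH-adjusted p = 5.86e-04). The 4-group count was 1 whenever 1 library was left out, other than NCD_cold replicate 3, HFD_RT replicate 1 or HFD_cold replicate 3. The median log2 fold change of the 10 genes was 0.65 for cold on NCD, where all tested genes had a median of -0.01, and 0.26 for cold on HFD (all genes -0.04). With a skeletal muscle score as a term, each of the 9 calls in the pairwise comparisons was kept. The median was 0.31 for HFD at room temperature (all genes 0.03) and -0.03 for HFD in the cold (all genes 0.02).

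**Figure D1:**
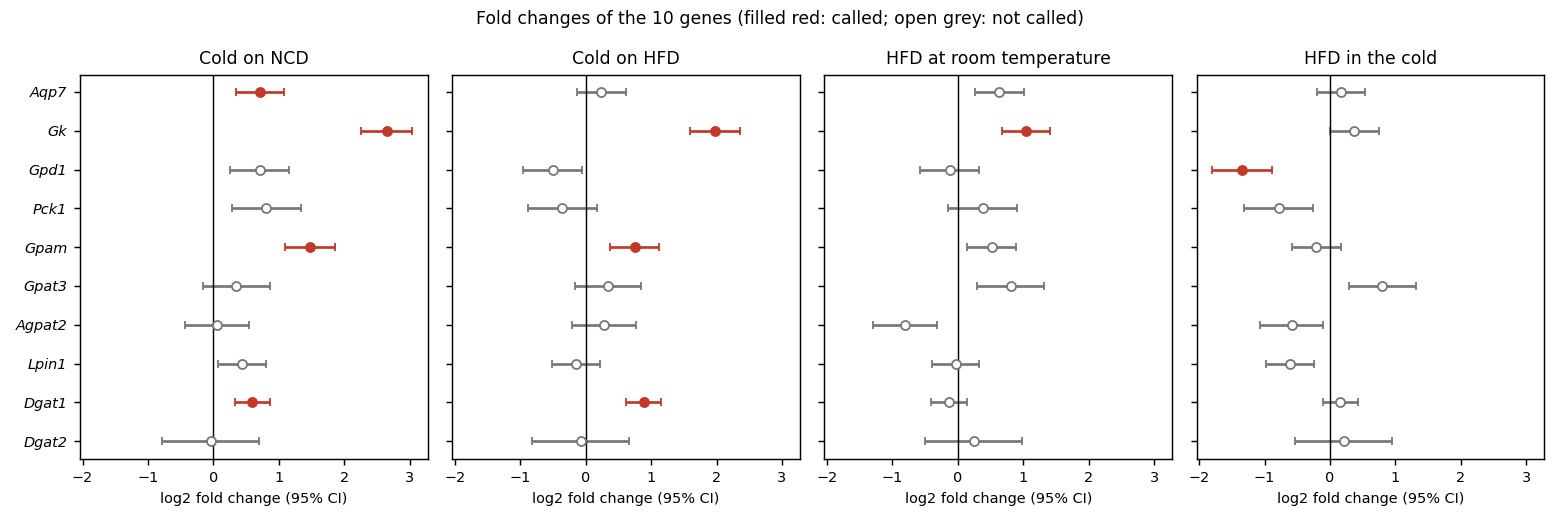
Log2 fold change (x axis) of each of the 10 genes (y axis) in the cold on NCD, in the cold on HFD, with HFD at room temperature and with HFD in the cold. Points are edgeR estimates from 3 libraries per group, bars are 95% confidence intervals, and filled red points were called. Gk stands at 2.64 and 1.98 in the cold panels, and Gpd1 at -1.34 with HFD in the cold.

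Sequences upstream of the transcription start are shown for Gk and Gpam, the genes past the 4-group threshold, and for Pck1, whose cyclic AMP response element is a textbook example. RefSeq promoters on GRCm38.p6 matched 7 of the 10 genes with 9 starts, and 250 bases before each start were searched on both strands for the cyclic AMP response element TGACGTCA, its variant form TTACGTCA, its core letters TGACG, the E-box letters CACGTG, the nuclear receptor core letters AGGTCA and the GC box letters GGGCGG. The letters of TGACG on the reverse strand lie within TGACGTCA and TTACGTCA, so these motifs overlap. Capitals mark CACGTG in Gk, TTACGTCA in Pck1 and TGACG, read on the reverse strand, in the second Gpam start. The Gk stretch is chrX:85776820-85777069 on the minus strand, the Gpam stretches are chr19:55127239-55127488 and chr19:55099478-55099727 on the minus strand, and the Pck1 stretch is chr2:173152823-173153072 on the plus strand. The last bases of the Pck1 stretch lie in the first exon of the gene in GENCODE M21, and the second Gpam stretch lies in an intron of the longer Gpam transcripts.
Gk: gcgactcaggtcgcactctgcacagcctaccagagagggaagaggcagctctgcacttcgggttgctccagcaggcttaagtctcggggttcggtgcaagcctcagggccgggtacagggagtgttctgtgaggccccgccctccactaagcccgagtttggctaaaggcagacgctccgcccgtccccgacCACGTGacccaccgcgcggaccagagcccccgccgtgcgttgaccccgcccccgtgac
Gpam, first start: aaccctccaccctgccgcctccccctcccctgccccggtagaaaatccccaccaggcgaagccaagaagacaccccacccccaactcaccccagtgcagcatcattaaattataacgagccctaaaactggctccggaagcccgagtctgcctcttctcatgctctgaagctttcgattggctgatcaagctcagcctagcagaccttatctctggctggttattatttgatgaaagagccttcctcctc
Gpam, second start: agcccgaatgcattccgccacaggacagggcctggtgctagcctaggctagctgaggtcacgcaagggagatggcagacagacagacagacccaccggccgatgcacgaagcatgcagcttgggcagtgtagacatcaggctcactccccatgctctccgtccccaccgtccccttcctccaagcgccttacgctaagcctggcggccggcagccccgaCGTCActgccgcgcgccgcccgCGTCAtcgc
Pck1: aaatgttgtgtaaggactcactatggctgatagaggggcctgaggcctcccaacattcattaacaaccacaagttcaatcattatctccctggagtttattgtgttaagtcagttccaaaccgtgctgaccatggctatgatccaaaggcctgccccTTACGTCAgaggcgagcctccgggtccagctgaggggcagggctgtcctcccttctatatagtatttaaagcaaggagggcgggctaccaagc

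The E-box letters CACGTG began 58 bases before the Gk start and were found in 6.02% of all 32851 promoters. TTACGTCA began 93 bases before the Pck1 start and was found in 0.447% of promoters. TGACG was found at 31 and 9 bases before the second Gpam start, in Pck1 and in Gpat3, and in 17.8% of promoters. The full palindrome TGACGTCA was in none of the 9 starts and in 1.55% of promoters. AGGTCA was found in both Aqp7 starts, in Lpin1 and in the second Gpam start (14.0% of promoters), and GGGCGG in Agpat2, Pck1, Gpat3, Gk and the second Gpam start (32.7%). The first Gpam start held none of these letters. A match describes the letters only.

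Aqp7 encodes the channel through which glycerol crosses the adipocyte membrane (chr4:41033074-41048139, minus strand, GRCm38). Its level was 154, 126 and 127 CPM in the NCD libraries at room temperature and 246, 226 and 193 CPM in those in the cold. On HFD it was 237, 227 and 169 CPM at room temperature and 280, 267 and 201 CPM in the cold. All 3 cold libraries on NCD lay above all 3 at room temperature, whereas the HFD groups overlapped, and replicate 3 was the lowest of its group in every group but NCD at room temperature. The cold effect was 0.71 ± 0.17 (log2 fold change ± SE) on NCD (edgeR, BH-adjusted p = 0.0282) and 0.24 ± 0.17 on HFD (edgeR, BH-adjusted p = 0.381). The call on NCD was lost without NCD_RT replicate 2, NCD_RT replicate 3, NCD_cold replicate 1 or NCD_cold replicate 2, with log2 fold changes of 0.64 to 0.70. With HFD at room temperature Aqp7 differed by 0.64 ± 0.17 with no overlap between the groups, but its adjusted p was 0.0788 (edgeR, BH). It passed with batch as a term (0.62, edgeR BH-adjusted p = 0.017).

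Gk encodes glycerol kinase, which phosphorylates glycerol and so returns it to lipid synthesis (chrX:85701937-85776819, minus strand). In the NCD libraries it had 127, 203 and 176 CPM at room temperature and 1033, 1122 and 1007 CPM in the cold. In the HFD libraries it had 294, 387 and 361 CPM at room temperature and 1245, 1493 and 1358 CPM in the cold. No library of one group overlapped with any library of another, and the order from lowest to highest was NCD at room temperature, HFD at room temperature, NCD in the cold and HFD in the cold.

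The cold effect on Gk was 2.64 ± 0.18 on NCD (edgeR, BH-adjusted p = 5.08e-05), which ranked 3 among all tested genes by p. It was 1.98 ± 0.17 on HFD (edgeR, BH-adjusted p = 1.68e-04), which ranked 15. In the 4-group test Gk ranked 7 (edgeR, BH-adjusted p = 1.63e-05). Within the batch of replicates 1 and 2 alone, the cold effects were 2.71 and 2.01, and in the replicate 3 pairs of the other batch they were 2.52 on NCD and 1.91 on HFD, values from 1 library per group. Gk was higher in the cold in 6 of 6 same-numbered pairs and in both batches. Since the groups did not overlap, any pairing would give this count, which adds nothing to the lack of overlap.

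HFD at room temperature raised Gk by 1.04 ± 0.17 (edgeR, BH-adjusted p = 0.0107). The call was lost without HFD_RT replicate 2 (0.96, edgeR BH-adjusted p = 0.0517), with only the 6 libraries compared (1.05, edgeR BH-adjusted p = 0.0534) and within the batch of replicates 1 and 2 alone (1.04, edgeR BH-adjusted p = 0.145). In the cold the difference between the diets was 0.37 ± 0.17, without overlap but not past the threshold (edgeR, BH-adjusted p = 0.214).

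Gpd1 encodes the cytosolic glycerol-3-phosphate dehydrogenase, which makes glycerol-3-phosphate from the glycolytic intermediate dihydroxyacetone phosphate (chr15:99717515-99725005, plus strand). On NCD it had 11310, 11340 and 9472 CPM at room temperature and 16600, 16020 and 19840 CPM in the cold. On HFD it had 11430, 10470 and 7536 CPM at room temperature and 5192, 8346 and 7204 CPM in the cold. The NCD libraries in the cold were the 3 highest of all 12, and every HFD library in the cold lay below every NCD library.

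With HFD in the cold Gpd1 fell by 1.34 on the log2 scale (SE 0.21, 2.53-fold lower, edgeR BH-adjusted p = 0.00603). The call was kept in every fit that left out 1 library, with values from -1.5 to -1.14, and was lost within the batch of replicates 1 and 2 alone (-1.27, edgeR BH-adjusted p = 0.1). The cold effect itself was 0.71 ± 0.21 on NCD (edgeR, BH-adjusted p = 0.0611), without overlap, and -0.51 ± 0.21 on HFD (edgeR, BH-adjusted p = 0.138), with overlap. The effect on NCD passed without HFD_RT replicate 3 (edgeR, BH-adjusted p = 0.0406), without HFD_cold replicate 1 (edgeR, BH-adjusted p = 0.0492) and with only the 6 libraries compared (edgeR, BH-adjusted p = 0.0268). The summed adipocyte markers, given above, were also higher on NCD than on HFD in the cold without overlap, and their part in the Gpd1 difference was not tested.

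Pck1 encodes cytosolic phosphoenolpyruvate carboxykinase, the enzyme that commits carbon to glyceroneogenesis in fat (chr2:173153048-173159273, plus strand). Its NCD levels were 2915, 1645 and 2636 CPM at room temperature and 5056, 3680 and 3831 CPM in the cold. Its HFD levels were 3263, 2869 and 3224 CPM at room temperature and 1765, 3049 and 2498 CPM in the cold. The cold libraries on NCD stood above all others, and on HFD the temperature groups overlapped. The cold effect was 0.80 ± 0.24 on NCD (edgeR, BH-adjusted p = 0.0665) and -0.36 ± 0.24 on HFD (edgeR, BH-adjusted p = 0.365). With a replicate block within diet, which pairs same-numbered libraries, the effect on NCD was 0.83 ± 0.20 and passed the threshold (edgeR, BH-adjusted p = 0.031). The labels do not state this pairing, which was inferred from correlations in the same counts. The effect also passed with DESeq2 and without a filter. It did not pass with batch as a term (0.81, edgeR BH-adjusted p = 0.0744) or the replicate block over the 4 groups (0.81, edgeR BH-adjusted p = 0.082). Nor did it pass with the muscle score (0.75, edgeR BH-adjusted p = 0.0843). With HFD in the cold Pck1 was lower in all 3 libraries than in any NCD library in the cold, a difference of -0.78 ± 0.24 that did not pass (edgeR, BH-adjusted p = 0.0831).

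**Figure D2:**
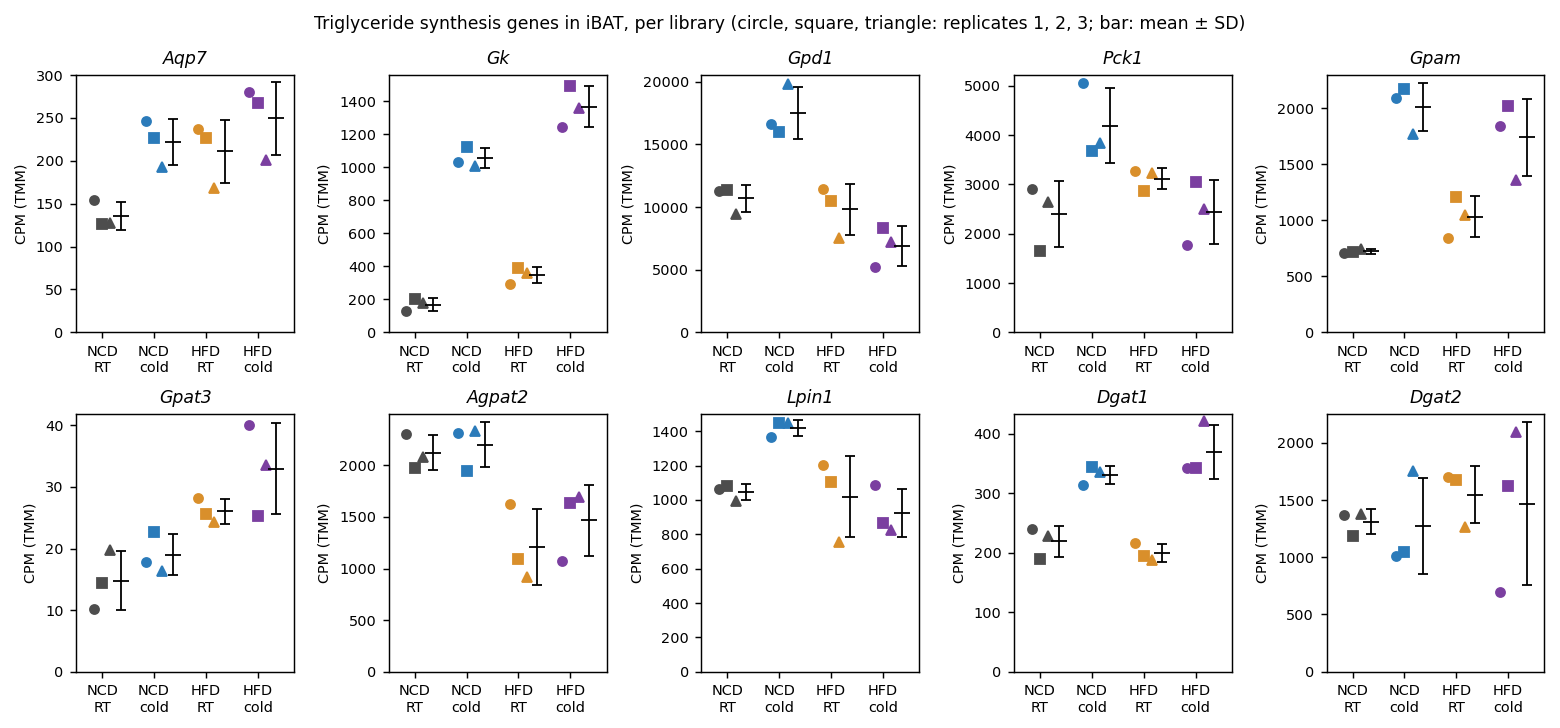
CPM after TMM normalization (y axis, from 0) of each of the 10 genes in the 4 groups (x axis). Circles, squares and triangles are replicates 1, 2 and 3, and bars are the mean ± SD of 3 libraries. The Gk panel has 4 groups that do not overlap, from 127 CPM to 1493 CPM, and the Dgat2 panel has 1 HFD library in the cold at 693 CPM and another at 2091 CPM.

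Gpam encodes the mitochondrial glycerol-3-phosphate acyltransferase, which adds the first fatty acid to the backbone (chr19:55067268-55127238, minus strand). On NCD it had 709, 713 and 747 CPM at room temperature and 2095, 2173 and 1770 CPM in the cold. On HFD it had 846, 1207 and 1049 CPM at room temperature and 1842, 2022 and 1357 CPM in the cold. The cold libraries lay above those at room temperature on both diets, and the NCD libraries at room temperature differed from each other by only 1.05-fold. The cold effect was 1.48 ± 0.17 on NCD (edgeR, BH-adjusted p = 8.78e-04) and 0.75 ± 0.17 on HFD (edgeR, BH-adjusted p = 0.0172). Within the batch of replicates 1 and 2 the effects were 1.58 and 0.91, and in the replicate 3 pairs they were 1.24 and 0.37. The HFD call was lost in that batch alone (edgeR, BH-adjusted p = 0.0552) and with only the 6 libraries compared (0.76, edgeR BH-adjusted p = 0.083). With HFD at room temperature Gpam was higher by 0.52 ± 0.17 without overlap (edgeR, BH-adjusted p = 0.142).

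Gpat3 encodes a glycerol-3-phosphate acyltransferase of the endoplasmic reticulum (chr5:100845713-100899102, plus strand) and had the lowest level of the 10 genes. It had 10.2, 14.4 and 19.8 CPM on NCD at room temperature, 17.8, 22.7 and 16.4 CPM on NCD in the cold, 28.2, 25.7 and 24.2 CPM on HFD at room temperature and 40.1, 25.3 and 33.5 CPM on HFD in the cold. Every HFD library lay above every NCD library. The differences between the diets were 0.81 ± 0.23 at room temperature (edgeR, BH-adjusted p = 0.103) and 0.80 ± 0.23 in the cold (edgeR, BH-adjusted p = 0.071), and neither passed. The second passed without HFD_cold replicate 2 (0.96, edgeR BH-adjusted p = 0.0437) and without a filter (0.80, edgeR BH-adjusted p = 0.0398). Both passed with DESeq2 (DESeq2 adjusted p = 0.025 at room temperature and 0.0135 in the cold). Neither passed with batch as a term (edgeR, BH-adjusted p = 0.104 and 0.0744). An antisense gene that overlaps its exons, 4930458D05Rik, had 3.37% to 12.0% of the Gpat3 count. Whether strand was used in counting was not given in the sources used here. Another gene, Gm42987, overlaps Gpat3 exons on the same strand and was not among the genes in the count table.

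Agpat2 encodes the acyltransferase that adds the second fatty acid and whose loss causes lipodystrophy (chr2:26593057-26604417, minus strand). Its NCD levels were 2307, 1975 and 2082 CPM at room temperature and 2318, 1946 and 2336 CPM in the cold. Its HFD levels were 1622, 1090 and 918 CPM at room temperature and 1070, 1636 and 1696 CPM in the cold. Every HFD library lay below every NCD library, while the temperature groups overlapped on both diets. The difference with HFD was -0.81 ± 0.22 at room temperature (edgeR, BH-adjusted p = 0.0871) and -0.58 ± 0.22 in the cold (edgeR, BH-adjusted p = 0.144). The first passed without HFD_RT replicate 1 (-1.11, edgeR BH-adjusted p = 0.0302). It also passed with DESeq2 (-0.83, DESeq2 adjusted p = 0.00542) and without a filter (-0.82, edgeR BH-adjusted p = 0.0441). It did not pass with batch as a term (-0.81, edgeR BH-adjusted p = 0.093) or with the muscle score (-0.84, edgeR BH-adjusted p = 0.0612). Egfl7, whose exons overlap those of Agpat2 on the opposite strand, had 3.21% to 12.9% of the Agpat2 count. The corresponding share was at most 0.0178% for Gpd1 and 0.00524% for Gk, and the other 6 genes had no exon that overlaps another gene in GENCODE M21.

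Lpin1 encodes lipin 1, the phosphatase that turns phosphatidate into diacylglycerol (chr12:16535669-16610966, minus strand). On NCD it had 1062, 1082 and 992 CPM at room temperature and 1366, 1446 and 1447 CPM in the cold. On HFD it had 1203, 1105 and 753 CPM at room temperature and 1085, 864 and 827 CPM in the cold. The NCD libraries in the cold were higher than all other libraries. Neither the cold effect on NCD (0.44 ± 0.17, edgeR BH-adjusted p = 0.142) nor the difference with HFD in the cold (-0.62 ± 0.17, edgeR BH-adjusted p = 0.056) passed. The latter passed with batch as a term (-0.63, edgeR BH-adjusted p = 0.0352) and without HFD_RT replicate 3 (-0.62, edgeR BH-adjusted p = 0.0203).

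Dgat1 and Dgat2 encode the unrelated acyltransferases that add the last fatty acid. Dgat1 (chr15:76502015-76511953, minus strand) had 240, 189 and 227 CPM on NCD at room temperature and 314, 344 and 335 CPM in the cold. On HFD it had 217, 194 and 188 CPM at room temperature and 342, 342 and 421 CPM in the cold. On both diets all cold libraries were above all libraries at room temperature. The cold effect was 0.60 ± 0.12 on NCD (edgeR, BH-adjusted p = 0.0151) and 0.89 ± 0.12 on HFD (edgeR, BH-adjusted p = 0.00163). The NCD call was lost without NCD_RT replicate 2, NCD_RT replicate 3 or NCD_cold replicate 2 (adjusted p up to 0.0643, edgeR BH). Within the batch of replicates 1 and 2 alone, the effects were 0.61 and 0.74 (edgeR, BH-adjusted p = 0.0843 and 0.0524), and in the replicate 3 pairs they were 0.56 and 1.16.

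Dgat2 (chr7:99153658-99182719, minus strand) had 1365, 1184 and 1379 CPM on NCD at room temperature, 1010, 1045 and 1753 CPM on NCD in the cold, 1701, 1678 and 1261 CPM on HFD at room temperature and 693, 1619 and 2091 CPM on HFD in the cold. All 4 comparisons overlapped. The spread within HFD in the cold was 3.02-fold, the widest of any gene and group here. The cold effect was -0.05 on NCD (95% confidence interval -0.79 to 0.70) and -0.08 on HFD (-0.82 to 0.66), so changes of up to these bounds could not be told from none. Leaving out HFD_cold replicate 1 turned the HFD effect to 0.29.

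Counted by overlap, 7 genes (Aqp7, Gk, Gpd1, Pck1, Gpam, Lpin1 and Dgat1) were higher in the cold on NCD in every library, where 15.2% of all tested genes were higher and 12.6% lower without overlap. On HFD the cold libraries were higher in this way for 3 genes (Gk, Gpam and Dgat1), against 15.9% of all genes higher and 14.4% lower. With HFD at room temperature 4 genes (Aqp7, Gk, Gpam and Gpat3) were higher and 1 (Agpat2) lower without overlap, with 13% of all genes higher and 12.9% lower. With HFD in the cold 2 genes (Gk and Gpat3) were higher and 4 (Gpd1, Pck1, Agpat2 and Lpin1) lower, with 12.1% of all genes higher and 13.1% lower.

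Whether the cold effect depended on the diet was asked with the interaction of diet and temperature, the cold effect on HFD minus that on NCD. At an adjusted p under 0.05, edgeR called 0 of the 10 genes, where 0% of all 16737 genes passed and the smallest adjusted p was 0.0566 (edgeR, BH). At an unadjusted p under 0.05, 5 of the 10 genes and 1091 genes of the table (6.52%) were found. The 5 were Gpd1 (-1.21 ± 0.29, edgeR BH-adjusted p = 0.489), Pck1 (-1.16 ± 0.34, edgeR BH-adjusted p = 0.591), Gpam (-0.73 ± 0.24, edgeR BH-adjusted p = 0.642), Gk (-0.67 ± 0.24, edgeR BH-adjusted p = 0.689) and Lpin1 (-0.58 ± 0.24, edgeR BH-adjusted p = 0.74). All 5 had a smaller or opposite log2 cold effect on HFD. DESeq2 called 62 genes, Gpd1 among them (-1.19, DESeq2 adjusted p = 0.0101), and no other of the 10.

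Same-numbered libraries were also compared as pairs, although the labels do not state a pairing. Gpd1 changed by 0.55, 0.50 and 1.07 in the 3 NCD pairs and by -1.14, -0.33 and -0.07 in the 3 HFD pairs on the log2 scale. Gpam changed by 1.56, 1.61 and 1.24 on NCD and by 1.12, 0.74 and 0.37 on HFD. Gpd1 went up in every same-numbered NCD pair and down in every same-numbered HFD pair. On HFD this depends on the numbering, since HFD_cold replicate 2 (8346 CPM) lay above HFD_RT replicate 3 (7536 CPM). Every NCD pair lay above every HFD pair for Gpam, Gk, Gpd1, Pck1, Aqp7 and Lpin1. This was not so for Gpat3, Agpat2, Dgat1 and Dgat2. Pck1 changed by 0.79, 1.16 and 0.54 on NCD and by -0.89, 0.09 and -0.37 on HFD. Aqp7 changed by 0.67, 0.85 and 0.60 on NCD and by 0.24, 0.23 and 0.25 on HFD.

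**Figure D3:**
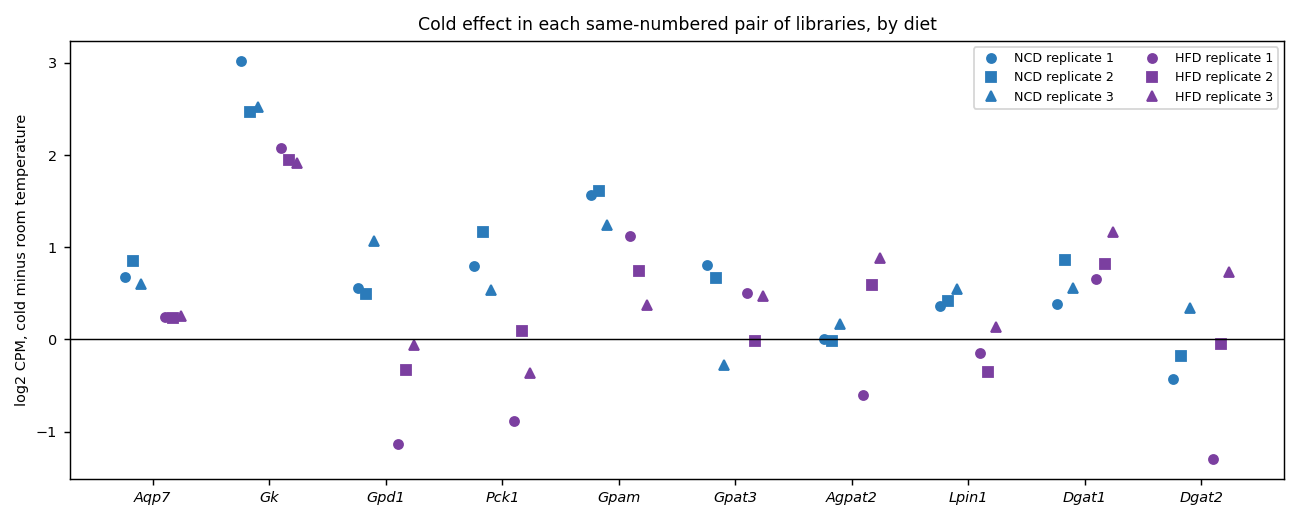
Log2 CPM in the cold minus log2 CPM at room temperature (y axis) of the 10 genes (x axis) in each same-numbered pair of libraries, blue for NCD and purple for HFD. Gk lies above 1.91 in all 6 pairs, and Gpd1 lies above 0 in the NCD pairs and below 0 in the HFD pairs. The labels do not state a pairing.

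HFD_cold replicate 1 lay at the end of its group in several genes. It had the lowest Gk, Gpd1, Pck1, Agpat2 and Dgat2 of its group and the highest Gpat3, Lpin1 and Aqp7. Among so few libraries such positions alone do not set a library apart. Its Aqp7 was close to that of replicate 2 (280 and 267 CPM), with replicate 3 at 201 CPM, and Gk ranged only 1.2-fold in this group. Without HFD_cold replicate 1, Gpd1 with HFD in the cold was -1.14 (edgeR, BH-adjusted p = 0.027) and the Gpd1 interaction -0.99. Pck1 with HFD in the cold was -0.57 without it. The summed brown adipocyte markers of this library were 15370 CPM and those of the other HFD libraries in the cold 18790 and 16710 CPM. These marker sums moved with the cold, as given above, so they do not measure brown adipocyte content alone. Their part in these values was not tested.

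Levels of different genes were compared per kb of exon, with exon lengths from GENCODE M21. These lengths merge the exons of all annotated transcripts of a gene, so the order of genes depends on them and can differ from that in CPM. Gpd1 was the highest in every group, at 3620 ± 361 CPM per kb (mean ± SD, n = 3) on NCD at room temperature and 2340 ± 539 on HFD in the cold. Gpat3 was the lowest in every group, at 4.22 ± 1.37 and 9.41 ± 2.12 CPM per kb in the same groups. On NCD at room temperature the order from high to low was Gpd1, Agpat2, Pck1, Dgat2, Gpam, Lpin1, Dgat1, Aqp7, Gk and Gpat3, and of neighbours in this order Gpam and Lpin1 were the pair that overlapped. Gk stood at position 9 at room temperature on both diets (21.8 ± 5 and 44.9 ± 6.18 CPM per kb), at position 7 on NCD in the cold (136 ± 7.79) and at position 6 on HFD in the cold (176 ± 16). On NCD in the cold Gk overlapped with its upper neighbour Lpin1, and on HFD in the cold it overlapped with neither Gpam above nor Dgat1 below. Pck1 and Agpat2 overlapped in both cold groups.

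**Figure D4:**
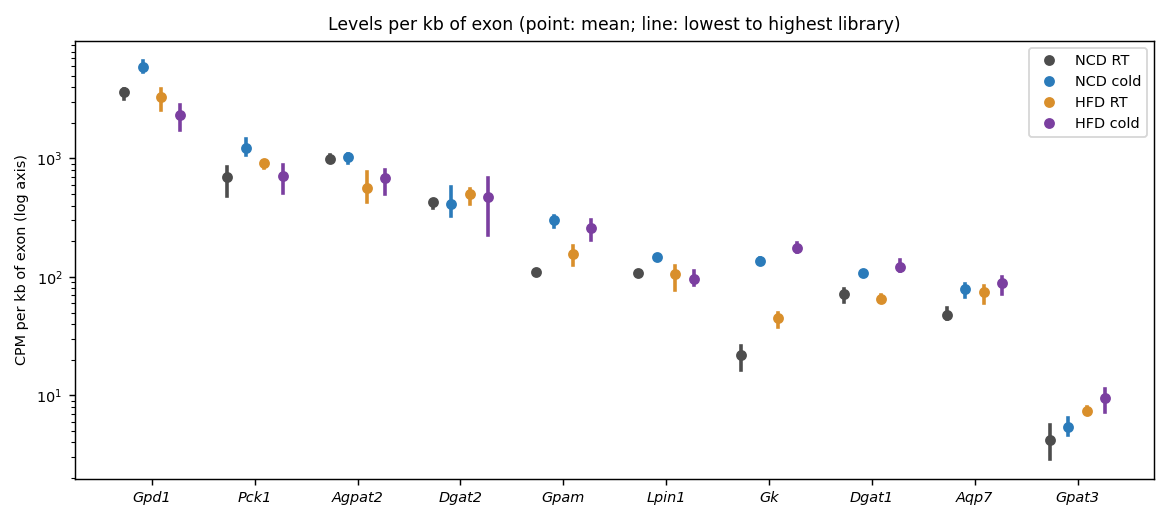
Level per kb of exon (y axis, log scale) of the 10 genes, ordered by their mean, in the 4 groups. Points are means of 3 libraries and lines run from the lowest to the highest library. On this scale Gk moves from 21.8 CPM per kb on NCD at room temperature to 176 CPM per kb on HFD in the cold, past Dgat1, Lpin1 and Aqp7.

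Ratios between genes within a library are given on the same scale as a description. Per 100 Gpd1, Gk stood at 0.608 ± 0.155 (SD, n = 3) on NCD at room temperature, 2.33 ± 0.372 on NCD in the cold, 1.41 ± 0.423 on HFD at room temperature and 7.74 ± 1.25 on HFD in the cold. The 3 HFD libraries in the cold, at 9.17, 6.84 and 7.21, stood above all others, of which the highest was 2.68. Per 100 Aqp7, Gk stood at 46.5 ± 14.9 and, in the cold, 175 ± 19.7 on NCD and at 61.9 ± 16.4 and 204 ± 42.0 on HFD. Per kb, Gk was below Aqp7 in all libraries at room temperature and above it in all libraries in the cold. This crossing rests on the merged exon lengths, 7743 bases for Gk and 2828 for Aqp7. In CPM, Gk was already above Aqp7 in every library at room temperature but NCD_RT replicate 1. Per 100 Dgat2, Dgat1 stood at 16.8 ± 0.874 and 28.0 ± 7.56 on NCD and at 13.1 ± 1.72 and 30.5 ± 16.8 on HFD, and HFD_cold replicate 1 alone reached 49.8. Dgat2 was the more abundant of the pair in all 12 libraries.

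**Figure D5:**
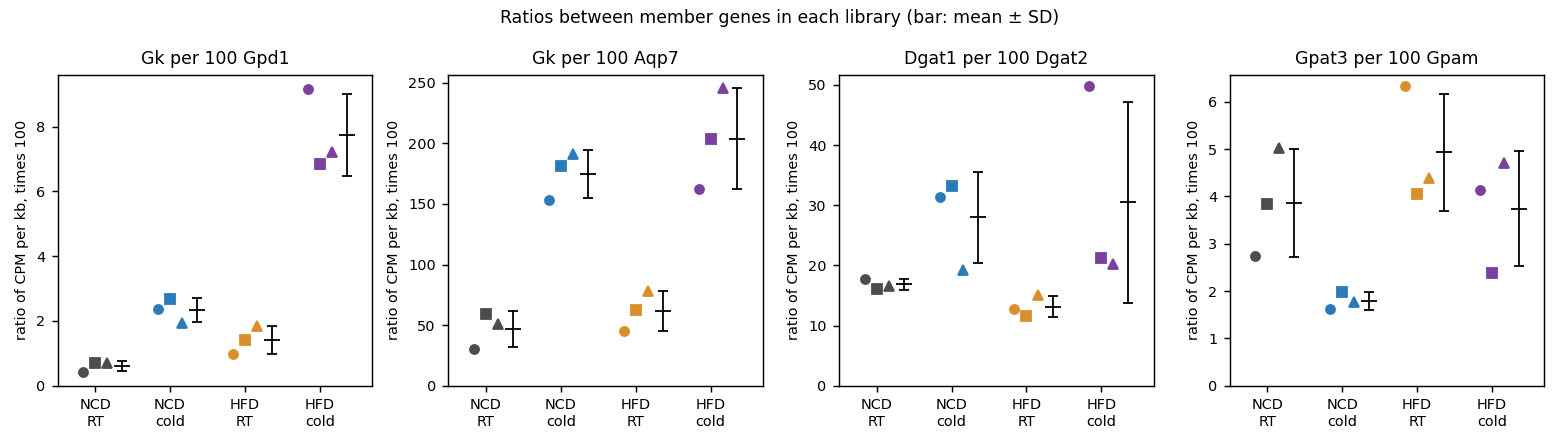
Ratios of CPM per kb, times 100 (y axis, from 0), of Gk to Gpd1, Gk to Aqp7, Dgat1 to Dgat2 and Gpat3 to Gpam in the 4 groups (x axis). Circles, squares and triangles are replicates 1, 2 and 3, and bars are the mean ± SD. Gk per 100 Gpd1 is highest in HFD in the cold, between 6.84 and 9.17.

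Levels were also set against the other enzymes of the same step. Gpam was 71.1% ± 0.351 of the summed level per kb of Gpam, Gpat3 and Gpat4 on NCD at room temperature and 75.7% ± 2.21 in the cold, and 78.1% ± 1.96 and 74.0% ± 5.09 on HFD (SD, n = 3). Gpat3 was 1.35% ± 0.129 to 3.83% ± 0.864 of the same sum. Agpat2 was 90.7% ± 1.30 of Agpat1 to Agpat5 on NCD at room temperature and 82.4% ± 3.11 on HFD at room temperature. Lpin1 was 93.4% ± 1.1 to 96.7% ± 0.416 of the 3 lipins.

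Of 35 other genes of the pathway and its phospholipid branch, 34 were in the table and 30 were tested. On NCD the cold raised 4 of these and lowered 1, where 3.72% of all tested genes were called higher and 2.55% lower. The 4 were Gpat4, the other acyltransferase of the endoplasmic reticulum (1.19 ± 0.12), Lclat1 (0.97 ± 0.20), the lipid phosphatase Plpp1 (0.98 ± 0.23) and Pcyt2, which makes CDP-ethanolamine (0.84 ± 0.13), and pyruvate carboxylase Pcx fell by 0.64 (SE 0.12). On HFD the cold raised 9 and lowered 2, against 5.39% of all tested genes called higher and 4.19% lower. Gpat4 (1.17 ± 0.12), Lclat1 (1.20 ± 0.20), Plpp1 (0.89 ± 0.23), Pcyt2 (0.64 ± 0.13), the mitochondrial carboxykinase Pck2 (1.14 ± 0.33), Aqp11 (1.04 ± 0.26), Agpat5 (0.62 ± 0.11), Selenoi (0.64 ± 0.12) and Etnk1 (0.55 ± 0.10) were higher. Pcx (-0.62 ± 0.12) and the mitochondrial glycerol-3-phosphate dehydrogenase Gpd2 (-0.83 ± 0.20) were lower.

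With HFD at room temperature Pcx was called lower (-0.67 ± 0.12) and no other of the 30 (all genes 0.992% higher and 1.09% lower). With HFD in the cold Pck2 was called higher (1.71 ± 0.33) and Pcx (-0.66 ± 0.12), Mogat1 (-1.53 ± 0.29), Mogat2 (-2.00 ± 0.52) and Pcyt2 (-0.55 ± 0.13) lower. Of all tested genes, 2.06% were called higher and 2.69% lower in that comparison. Pcx, which feeds glyceroneogenesis with oxaloacetate, had mean levels of 1260 ± 114 CPM (SD, n = 3) on NCD at room temperature, 807 ± 63.0 on NCD in the cold, 788 ± 77.4 on HFD at room temperature and 512 ± 40.4 on HFD in the cold. Mogat2 was near the floor, with 2, 2 and 8 counts on HFD in the cold and 7, 13 and 19 counts on NCD in the cold. Its call lay just inside the threshold (edgeR, BH-adjusted p = 0.049). Pck2 reached 46.7 CPM in HFD_cold replicate 1 and 15.8 and 21.8 CPM in the other libraries of that group. The median log2 fold change of the 30 genes was 0.24 for cold on NCD (all genes -0.01) and 0.26 for cold on HFD (all genes -0.04). It was -0.04 for HFD at room temperature (all genes 0.03) and 0.07 for HFD in the cold (all genes 0.02).

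Gk had the smallest p of the 10 genes in the 4-group test, and the genes nearest to its profile over the 12 libraries were sought among 13952 genes with a mean of at least 1 CPM. They were Arhgef33, the cyclic AMP phosphodiesterase Pde7b, the sodium, potassium and chloride cotransporter Slc12a2, Tectb and Fam131c. Their centred log2 CPM differed from that of Gk by a root mean square of 0.31 to 0.43. The cold effects of Slc12a2 were 1.82 on NCD and 2.28 on HFD, and those of Pde7b 1.94 and 2.11. Arhgef33 came nearest but had a mean of only 0.257 CPM on NCD at room temperature and 1.85 CPM in the cold.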

How the data were processed

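Total RNA of 12 iBAT libraries was sequenced as paired reads after depletion of ribosomal RNA. The authors trimmed with cutadapt and ran salmon on a joint GENCODE M22 and RNAcentral 5 transcriptome (GRCm38). They deposited the resulting estimated counts, summed by gene, unnormalized and in whole numbers. Versions of these tools are not given in the sources used here. The groups and the 2 batches followed the labels.

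Genes were kept with filterByExpr (minimum count 10), normalized with TMM and fitted in edgeR 4.0.16 (R 4.3.3) with 1 model of the 4 group means over all libraries. Log2 CPM used a prior count of 2. Without TMM, the median log2 fold change of all genes would be 0.20 for HFD at room temperature and 0.31 for HFD in the cold, where Scd1 took 2.05% of counts against 5.94% on NCD in the cold. A call in a pairwise comparison needed a BH-adjusted p under 0.05 with a log2 fold change beyond 0.5 in either direction, the 4-group test used an adjusted p under 0.001 and the interaction one under 0.05. The steps were tested on simulated data.

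Deviations from the group mean were correlated between same-numbered libraries at both temperatures (0.219 to 0.456 on NCD, 0.155 to 0.386 on HFD), so a replicate block within diet was fitted. The pairing was inferred from these correlations in the same counts, since the labels do not state one. Same-numbered libraries also shared a batch, and skeletal muscle markers peaked in the same replicate of both groups of a diet. The part of batch and muscle in these correlations was not tested. Across the diets at room temperature they were -0.18 to 0.365.

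Alternatives were DESeq2 1.42.0, its size factors, no filter, batch or replicate number as a term, replicates 1 and 2 alone, only the libraries compared, no minimum fold change, a skeletal muscle score as a term and each library left out. All 10 genes were named, with those of 35 other pathway genes that were called and the 5 genes nearest to the Gk profile. The genes and lists were chosen with earlier results of these data known. Positions and exon lengths came from GENCODE M21, and promoters from RefSeq.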

Additional observations from a re-analysis of the deposited data

Results flagged for a closer look

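The difference of the Gpd1 cold effect between the diets was -1.213 on the log2 scale (HFD minus NCD) in the fit of the group means. It was flagged because each of the 3 same-numbered NCD pairs rose and each of the 3 HFD pairs fell. The labels do not state a pairing, and the HFD groups at the 2 temperatures overlapped. The interaction did not pass in edgeR (BH-adjusted p = 0.489), and leaving out 1 library gave -1.37 to -0.99. The 3 HFD pairs ranged from -1.14 to -0.07, and the one nearest 0 came from replicate 3.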

How the results depend on the processing

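The calls of Gk and Gpam in the cold on NCD, of Gk and Dgat1 in the cold on HFD and of Gpd1 with HFD in the cold were kept in all 12 fits that left out 1 library, and so was Gpam on HFD (highest adjusted p 0.0474, edgeR, BH). Aqp7 and Dgat1 on NCD and Gk with HFD at room temperature were each lost in at least 1 such fit. With 3 libraries per group, small fold changes could not be called, and 1 batch holds 1 library per group. The causes of the changes below were not tested.

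Past the 4-group threshold there were 2 genes, and 7 with DESeq2, 4 without a filter, 1 with the replicate block over the 4 groups, 1 with the muscle score, 0 in replicates 1 and 2 alone and 1 to 2 with 1 library left out. For cold on NCD there were 4 calls, and 6 with DESeq2, which added Pck1 (0.79, DESeq2 adjusted p = 0.0107) and Gpd1 (0.69, DESeq2 adjusted p = 0.00694), 5 without a filter (Pck1 added, 0.82, edgeR BH-adjusted p = 0.0358), 5 with only the 6 libraries compared (Gpd1 added), 3 in replicates 1 and 2 alone (Dgat1 lost) and 2 to 5 with 1 library left out. For cold on HFD, replicates 1 and 2 alone gave 1 call. For HFD at room temperature there were 4 calls with DESeq2, 0 in replicates 1 and 2 alone, 0 with only the 6 libraries compared, 0 to 2 with 1 library left out, and 2 each without a filter, with batch, with the replicate block and with the muscle score. For HFD in the cold there were 4 with DESeq2, 0 in replicates 1 and 2 alone, 1 to 2 with 1 library left out, and 2 each without a filter, with batch, with the replicate block and with the muscle score. The interaction had 1 call with DESeq2. These counts cover only the chosen genes, and the share of all tested genes called under each setting is not given beside them. A larger count under another setting therefore need not be particular to the chosen genes. The replicate block within diet added Pck1 for cold on NCD (0.83, edgeR BH-adjusted p = 0.031) and changed no other call.

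Values near 0 changed sign. For the Gpat3 interaction they were 0.010 with DESeq2, 0.007 with its size factors, 0.014 without a filter, 0.012 with the muscle score and -0.256 to 0.219 with 1 library left out. Agpat2 in the cold on NCD was -0.007 in replicates 1 and 2 alone and -0.012 with the muscle score, and on HFD -0.002 in replicates 1 and 2 alone. Lpin1 with HFD at room temperature was 0.106 in replicates 1 and 2 alone and -0.205 to 0.144 with 1 library left out, and in the cold on HFD -0.319 to 0.028. Gpd1 with HFD at room temperature was -0.284 to 0.033. The Dgat2 interaction was 0.004 without a filter and -0.337 to 0.366 with 1 library left out. Dgat2 was then -0.340 to 0.102 in the cold on NCD, -0.413 to 0.291 in the cold on HFD and -0.125 to 0.579 with HFD in the cold.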
